A study of Mus musculus with 30 samples.

Results

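The laminin and integrin genes of mouse 3T3-L1 cells were followed across 6 culture conditions. The members were the genes whose symbols name a laminin alpha, beta or gamma chain or an integrin alpha or beta subunit. There were 37 such genes among the 54232 genes of the count table, and 34 of them (10 laminin, 17 integrin alpha and 7 integrin beta genes) had more than 14 counts summed over the 30 libraries, as did 20139 genes in all. The other 3 could not be tested: Lama1 had 2 counts over all libraries, Itgb6 had 1 and Itgam had 0. Of the exon bases of Itgam, 68.7% are shared on the same strand with the annotated gene Gm49368, so a count of 0 does not show that Itgam was silent.

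3T3-L1 is an established line of mouse embryo fibroblasts that is grown as preadipocytes and can be turned into fat-storing adipocytes. All 30 libraries came from this 1 line, kept in adipogenic medium for 5 days, and each of the 6 groups held 5 libraries. Control cells received neither agent. Indoxyl Sulphate (IS), a uremic toxin, was given at 100 µM, and oxidative LDL (oxLDL), an oxidized lipoprotein that causes oxidant stress, at 50 µg/mL, each alone or with pNaKtide. pNaKtide is a cell-permeant peptide made to block Src signaling through the Na,K-ATPase, and it was used at 0.7 µM, also in cells that received no other agent. The labels give 5 days of treatment, while the methods of the study describe a shorter exposure. The extraction text of the labels names adipose tissue, although every label names 3T3 cells. Nothing in the labels says that the 5 libraries of a group came from separate cultures, so p-values measure the spread between these libraries, which may be technical.

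Laminins are trimers of an alpha, a beta and a gamma chain found in basement membranes, the sheets of matrix that wrap every adipocyte. Integrins are cell-surface pairs of an alpha and a beta subunit that bind matrix outside the cell and the actin cytoskeleton inside it. The alpha subunit largely sets the ligand: integrins with Itga3, Itga6 or Itga7 bind laminins, those with Itga5 bind fibronectin, those with Itgav bind RGD-bearing proteins such as vitronectin, and those with Itga1, Itga2, Itga10 or Itga11 bind collagens. Itgb1 is the partner of most of these alpha subunits, while Itgb3, Itgb5 and Itgb8 pair with Itgav. Preadipocytes live in a fibronectin-rich matrix and replace it with a laminin-rich one as they fill with lipid.

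The libraries held between 6945498 and 15159877 counts (median 11524210). On the first principal component of log2 CPM (68.9% of the variance over 11346 genes), control replicate 1 lay at -24.21 (the 4 remaining controls between 5.87 and 27.73), and IS replicate 4 lay at 26.41 (the 4 remaining IS libraries between -33.95 and -21.27). Results that rest on control replicate 1 and IS replicate 4 are therefore given with and without them. Both were picked from these data for lying near the other group, so leaving them out favours a difference from control. The p-values of those fits are no independent support. Apart from its group too was oxLDL + pNaKtide replicate 4, at 62.85 (the 4 remaining libraries between 13.83 and 30.97). This library also had the fewest counts (6945498), and it was left out only in the fits without 1 library. Adipocyte markers fitted the labelled cells: the 10 fixed markers summed to between 4007.6 and 7813.9 FPKM per library (fragments per kilobase scaled to depth, as deposited). The leukocyte markers Cd3e and Ptprc, the endothelial marker Tie1 and the epithelial marker Krt5 were at 0 counts in all libraries, and the 10 leukocyte markers, one of which is the member Itgb2, summed to at most 11.3 FPKM, the 8 endothelial markers to at most 0.113 and the 7 epithelial markers to at most 4.73. The 5 Schwann cell markers summed to between 4.31 and 6 FPKM.

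At the level of transcripts, 1 chain led each laminin position. Lama4 made up 99.4% ± 0.17 (SD, 30 libraries) of the summed FPKM of the alpha chains, Lamc1 made up 99% ± 0.255 of the gamma chains, and Lamb1 made up 90.8% ± 0.864 of the beta chains, with Lamb2 at 8.31% ± 0.972. In control cells the levels were 37.6 ± 0.864 FPKM for Lama4, 65 ± 2.06 for Lamb1, 67.4 ± 2.68 for Lamc1 and 5.79 ± 1.05 for Lamb2 (SD, n = 5). These are the chains of the laminin typical of fat and vessels, in which Lama4 carries the receptor-binding domain. The chains known from muscle (Lama2, 0.121 ± 0.0451 FPKM) and from epithelia (Lama3, 0.00994 ± 0.00747; Lama5, 0.11 ± 0.0269; Lamb3, 0.623 ± 0.0891) were all under 1 FPKM in control cells, as was Lamc3 at 0.0362 ± 0.0219.

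Among the integrin alpha subunits, Itga5 was the most abundant per length, with 57% ± 6.83 (SD, 30 libraries) of their summed FPKM, followed by Itga6 with 29.3% ± 5.18. Itgav held 5.36% ± 1.77 and Itga7 5.24% ± 0.853, and these neighbours did not differ beyond their spread. In control cells this came to 51.6 ± 6.74 FPKM for Itga5, 22.8 ± 3.37 for Itga6, 4.15 ± 0.556 for Itga7 and 3.94 ± 0.745 for Itgav (SD, n = 5). Of the beta subunits, Itgb1 held 72.2% ± 5.22, Itgb5 23.4% ± 4.97 and Itgb3 3.63% ± 0.74, and the control levels were 71.3 ± 8.58, 27.9 ± 4.57 and 3.56 ± 1.22 FPKM. The other 13 integrin alpha genes and 4 integrin beta genes tested had mean levels under 1 FPKM, from Itga2b at 0.874, the platelet integrin subunit, down to Itga4 at 0.00502. Itga4 (27 counts over 30 libraries), Itga2 (34), Itga9 (34), Itgb8 (39), Itgal (46) and Itgax (18) were so low that single reads set their folds, and the laminin gene Lama3 (23) was as low.

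**Figure D1:**
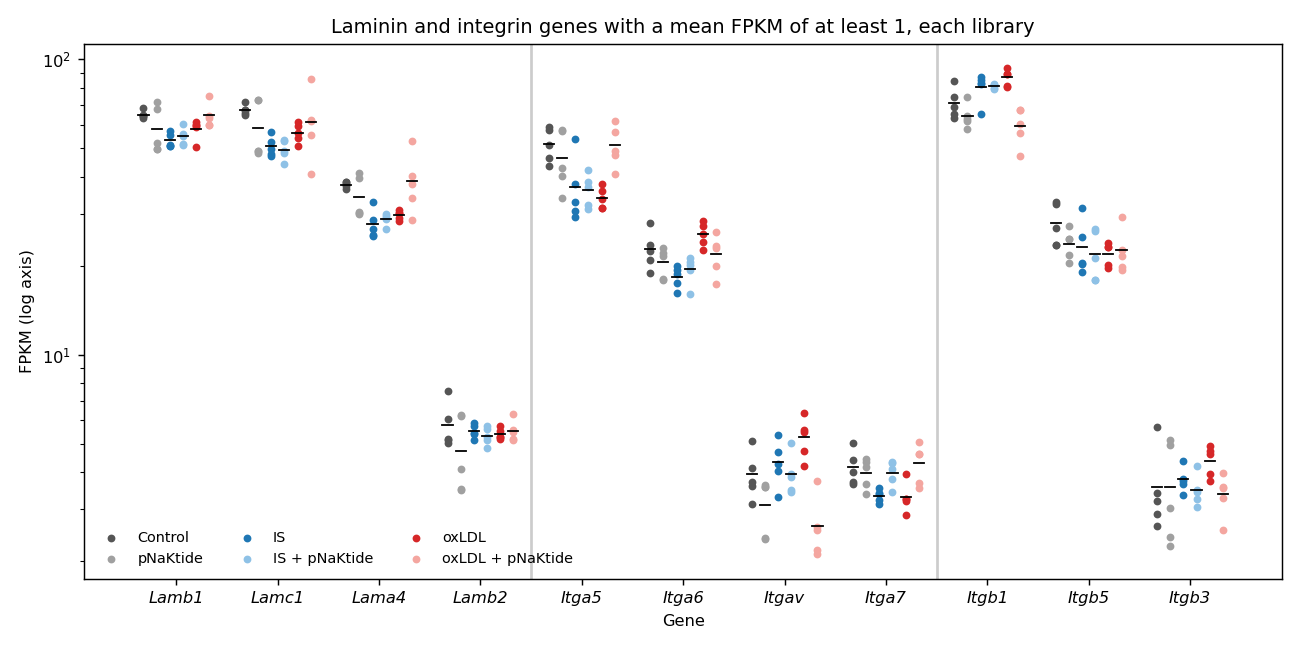
FPKM (log axis) of the 11 laminin and integrin genes with a mean of at least 1 FPKM, with 1 point per library, coloured by group, and a black bar at each group mean. Lamb1, Lamc1, Itgb1, Itga5 and Lama4 lead, and Itgav lies lowest in the oxLDL + pNaKtide libraries.

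The members are long genes: the median of their summed exon length was 6813.5 bases against 3108 over all genes tested. Their median GC content, 52.9% of the longest transcript, was near the 49.4% of all genes, but they ranged widely, which bears on the comparisons that follow. Itgav (43.5%) and Itgb1 (44.8%) lay low, and Itga5 (57.3%), Itga7 (57.8%) and Itgb5 (57%) lay high. Itgav spans 83724397 to 83806916 on chromosome 2 of GRCm38, plus strand, and Itgb1 spans 128685654 to 128733200 on chromosome 8, plus strand. Itga5 spans 103344286 to 103366763 on chromosome 15, minus strand, and Lama4 spans 38965515 to 39110188 on chromosome 10, plus strand. An annotated antisense transcript, Gm13684, shares 5.9% of the exon bases of Itgav, and the strand setting of the counting is not given in the sources used here.

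Because the transcripts of Itga5 moved one way and those of Itgav and Itgb1 the other in the comparisons below, their start regions are shown side by side. Each is 300 bases of GRCm38.p6 from RefSeq, 250 before and 50 after the annotated start, read 5′ to 3′ on the strand of the gene at chr15:103366742-103367041 for Itga5, chr2:83724147-83724446 for Itgav and chr8:128685404-128685703 for Itgb1. Capitals mark GC boxes (GGGCGG, on either strand).
Itga5: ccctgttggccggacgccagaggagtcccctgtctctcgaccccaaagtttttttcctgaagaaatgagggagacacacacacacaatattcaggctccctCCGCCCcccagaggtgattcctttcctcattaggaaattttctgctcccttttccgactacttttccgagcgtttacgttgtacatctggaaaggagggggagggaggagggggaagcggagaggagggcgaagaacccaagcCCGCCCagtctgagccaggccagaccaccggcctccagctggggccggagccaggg
Itgav: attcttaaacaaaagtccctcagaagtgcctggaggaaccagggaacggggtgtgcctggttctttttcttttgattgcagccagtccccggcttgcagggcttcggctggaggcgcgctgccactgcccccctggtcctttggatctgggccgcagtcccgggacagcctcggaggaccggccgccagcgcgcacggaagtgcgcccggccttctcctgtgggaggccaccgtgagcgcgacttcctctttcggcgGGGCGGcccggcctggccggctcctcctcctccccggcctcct
Itgb1: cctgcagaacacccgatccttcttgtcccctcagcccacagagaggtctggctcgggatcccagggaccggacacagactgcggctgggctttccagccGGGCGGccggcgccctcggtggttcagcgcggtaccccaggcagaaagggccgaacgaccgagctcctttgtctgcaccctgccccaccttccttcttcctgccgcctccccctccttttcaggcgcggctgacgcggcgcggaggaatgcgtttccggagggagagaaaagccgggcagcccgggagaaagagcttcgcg

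The Itga5 window held 2 GC boxes and 58.7% GC, and the windows of Itgav and Itgb1 held 1 GC box and 67.3% GC each, although the transcripts of Itgav and Itgb1 are poorer in GC than that of Itga5. The table had windows for 21 of the 34 members tested, 23 windows in all. A GC box was found in 11 of the 23, against 35.7% of all 32851 windows, a CCAAT box (CCAAT) in 4 against 37.4%, and a TATA box (TATAAA) in 0 against 13.6%. Both strands were searched. These matches describe letters in a window and no binding.

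The first comparison asked what an oxidant stimulus does to the adipocyte transcriptome. With oxLDL, 10 of the 34 members (29.4%) passed a Benjamini-Hochberg adjusted p of 0.1 in edgeR's quasi-likelihood test, against 36.0% of all genes tested, a share of members not above the background. The laminin receptor subunit Itga7, the fibronectin receptor subunit Itga5, Itga3, the vitronectin receptor subunit Itgb5 and the laminin chain Lama4 fell, and Itgav, Itgb1, Itga8, Itga11 and Itgb8 rose. The median log2 fold change of the members was -0.02, against 0.04 for all genes. Leaving out 1 library at a time gave from 6 members (without control replicate 5) to 11, and from 4971 to 9248 of all genes. Scaled by library size alone, which moved the median of all genes to 0.17, 6 members were called higher and 1 lower, where 7239 of the 20139 genes were called. Of the 10 adipocyte markers, 0 were called higher and 5 lower with oxLDL, and their summed FPKM ranged from 4721 to 6716.8 in control and from 4373.3 to 6213.9 in oxLDL libraries. Of the 9 preadipocyte and fibroblast markers, 0 were higher and 3 lower (752 to 992 against 640 to 720 FPKM). The part of these shifts in the values of the members was not tested. In all of these bulk libraries, fewer cells of a type and less RNA per cell cannot be told apart.

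Lama4 had 442, 454, 472, 460 and 470 CPM (counts relative to the TMM-scaled library total) in the control libraries and 372, 368, 343, 362 and 380 CPM in the oxLDL libraries. All 5 oxLDL libraries lay under all 5 control libraries, and the fitted change was -0.33 ± 0.12 in log2 (SE; adjusted p = 0.0331, edgeR). Lamb1, the main beta chain, gave 685, 644, 636, 649 and 647 CPM in control cells against 604, 602, 503, 603 and 619, and Lamc1, the main gamma chain, gave 564 ± 23.9 against 473 ± 36 CPM (SD, n = 5). The groups did not overlap for either gene, but neither passed the threshold, at log2 fold changes of -0.15 (95% interval -0.36 to 0.05) and -0.25 (-0.53 to 0.02) and adjusted p-values of 0.255 and 0.159 (edgeR). Lamc1 was past it in fits of these 2 groups alone (adjusted p = 0.0356, edgeR). Lamb2 was not past the threshold (-0.09, adjusted p = 0.626, edgeR).

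Of the alpha subunits called, Itga5 had the smallest adjusted p. It had 217, 286, 233, 295 and 256 CPM in control cells and 180, 157, 156, 192 and 168 CPM with oxLDL, with no overlap, which edgeR fitted as -0.59 ± 0.15 in log2 (SE, adjusted p = 0.00865). Itga7 had 34 ± 4.67 CPM in control cells and 27.2 ± 3.46 CPM with oxLDL, which edgeR fitted as -0.32 ± 0.11 in log2 (SE, adjusted p = 0.0253), a call lost when control replicate 5 was left out (adjusted p = 0.105). Itga3, another laminin-binding subunit, fell from 3.77 ± 0.63 to 2.67 ± 0.268 CPM without overlap (log2 fold change -0.49, adjusted p = 0.0514, edgeR), and this call was lost without control replicate 5 (adjusted p = 0.157) or oxLDL replicate 2 (0.108).

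In the other direction, Itgav had 55.3, 40.2, 45.4, 39.1 and 34.1 CPM in control cells and 69.7, 59.6, 45.6, 52.3 and 60.5 CPM with oxLDL. The groups overlapped through control replicate 1, the highest control library, and the fitted change was 0.43 ± 0.16 in log2 (SE; adjusted p = 0.0435, edgeR). Leaving out control replicate 4, control replicate 5 or oxLDL replicate 1 ended the call on Itgav (adjusted p = 0.105, 0.127 and 0.128). Itga6, the second most abundant alpha subunit, was not past the threshold (208 ± 30.7 against 235 ± 20.7 CPM, log2 fold change 0.17, adjusted p = 0.258, edgeR), but was without control replicate 1 (0.26, adjusted p = 0.0677). The ratio of Itga5 to Itga6 in FPKM was 2.33 ± 0.617 in control cells and 1.34 ± 0.209 with oxLDL, and that of Itga5 to Itgav was 13.6 ± 3.55 and 6.57 ± 1.08.

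Itgb1 rose from 348, 283, 309, 270 and 261 CPM to 387, 368, 334, 339 and 371 CPM with oxLDL, which edgeR fitted as 0.29 ± 0.10 in log2 (SE, adjusted p = 0.0324). Control replicate 1 alone lay inside the range of the oxLDL libraries. Itgb5 changed the other way, from 100 ± 16.2 to 79.4 ± 7.25 CPM (log2 fold change -0.33, adjusted p = 0.0613, edgeR), with overlap, a call lost by leaving out control replicate 2 or 4 or oxLDL replicate 2 or 5 (adjusted p from 0.137 to 0.181). Itgb3 was at 21.2 ± 7.22 and 26.3 ± 3.1 CPM (0.31, adjusted p = 0.234, edgeR). Without control replicate 1, where Itgb3 stood at 33.8 CPM, its log2 fold change was 0.54 (adjusted p = 0.0144, edgeR).

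Itga8, which pairs with Itgb1, rose from 1.1 ± 0.259 to 1.92 ± 0.487 CPM (0.78, adjusted p = 0.0441, edgeR), a call lost without control replicate 3 (adjusted p = 0.103) or oxLDL replicate 4 (0.109). The collagen receptor subunit Itga11 had 15 counts in the control libraries together and 39 in the oxLDL libraries (log2 fold change 1.17, adjusted p = 0.0935, edgeR) and was called in 3 of the 10 fits that left out 1 library. It was lost without control replicate 1, 2, 4 or 5 or oxLDL replicate 1, 2 or 4, at adjusted p-values up to 0.221. Itgb8 had 2 counts in the control libraries together and 14 in the oxLDL libraries, a ratio of 6.8 per count sequenced (95% exact interval 1.56 to 61.6, counting error only), and its adjusted p was 0.0286 (edgeR). In all, the groups did not overlap for 6 members (17.6%: Itga3, Itga5, Itgb8, Lama4, Lamb1 and Lamc1), against 8.35% of all genes. For Itgb8 this rested on library depth alone, as both groups held libraries with 1 count. Without control replicate 1 and IS replicate 4, 11 members were called, where 9591 of the 20139 genes tested were.

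**Figure D2:**
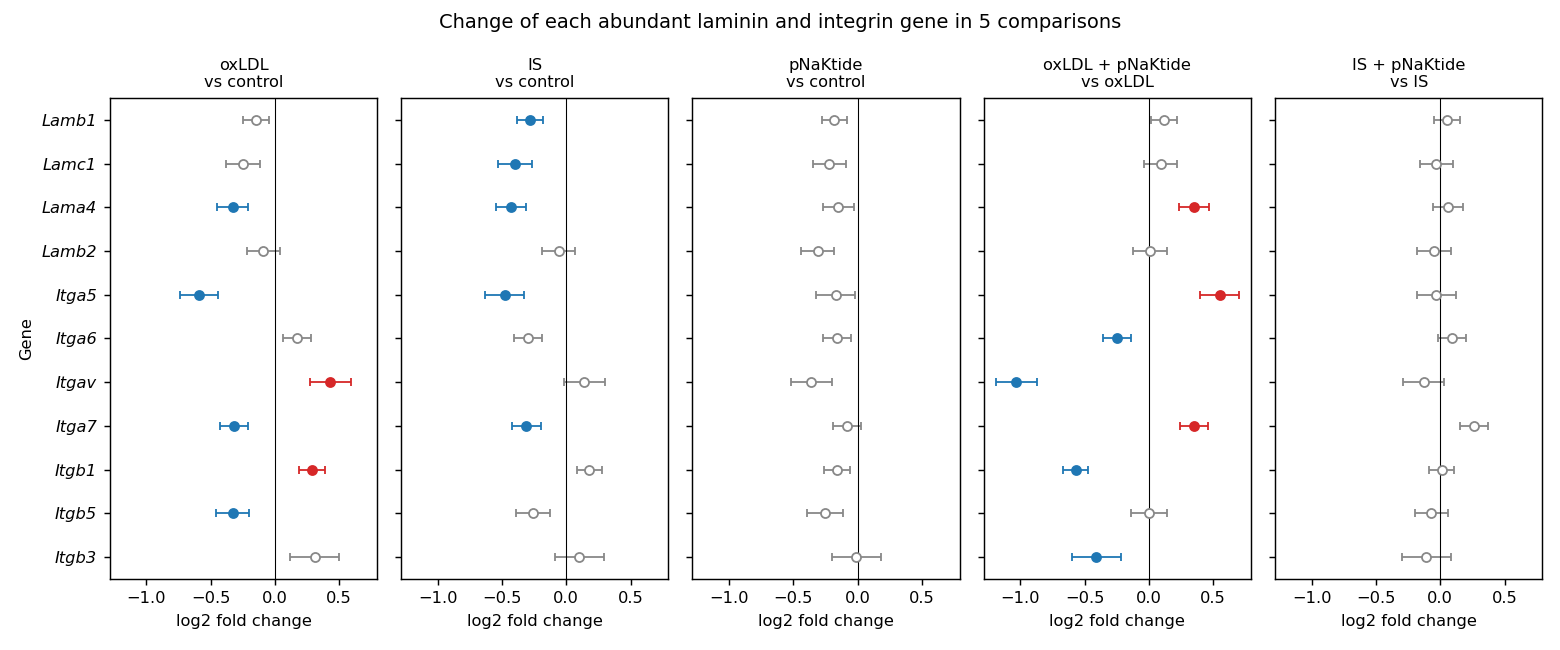
Log2 fold change (points) with its SE (bars) for the 11 abundant laminin and integrin genes in 5 comparisons, as fitted by edgeR over all 30 libraries. Filled red points are genes called higher, filled blue points genes called lower at an adjusted p of 0.1, and open points genes not called. Itga5, Itga7 and Lama4 lie left of 0 with oxLDL and right of it with pNaKtide added to oxLDL, and Itgav and Itgb1 do the reverse.

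For 8 of the 10 members called with oxLDL, the change had the sign of the trend over gene length and GC content fitted to the libraries, while Itga11 (trend -0.19 in log2) and Lama4 (0.07) went against it. With each library's trend taken out of the fit, 3 members were called with oxLDL, where 4004 genes were called in place of 7259: Itga5 (-0.37, adjusted p = 0.0216), Lama4 (-0.41, adjusted p = 0.00894) and Itga11 (1.34, adjusted p = 0.0742), all by edgeR. The fitted values were then 0.03 for Itgav and 0.05 for Itgb1, and Itga7 (-0.15), Itgb5 (-0.09), Itga3 (-0.27) and Itga8 (0.45), and also Itgb8, were no longer past the threshold. The trend alone came to 0.40 on the log2 scale for Itgav and -0.22 for Itga5. Lama4, at 50% GC, had a trend of 0.07 and so fell more once it was removed. Whether the trend over GC content is a property of the cells or of the libraries was not tested.

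**Figure D3:**
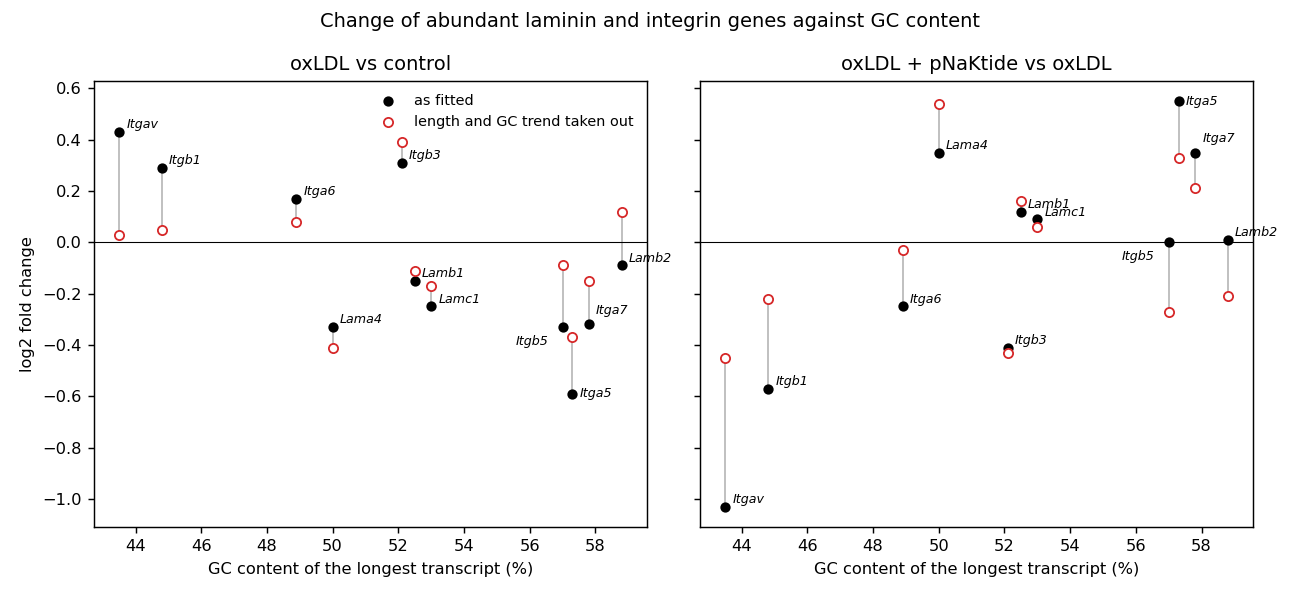
Log2 fold change of the 11 abundant members against the GC content of their longest transcript (%), with oxLDL against control (left) and with pNaKtide added to oxLDL (right), as fitted (black) and with the trend over gene length and GC content taken out (red circles). Itgav and Itgb1, at 43.5% and 44.8% GC, move to near 0 on the left, while Lama4 moves away from 0 in both panels.

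The second comparison asked the same of IS, a stimulus meant to imitate uremia. In the fit of all 30 libraries 6 members (17.6%) were called, against 7.94% of all genes tested, and all 6 were lower with IS (0 members higher, against 4.45% of all genes higher and 3.49% lower). They were the 3 main laminin chains Lama4, Lamb1 and Lamc1, the minor chain Lamb3, and the integrin subunits Itga5 and Itga7. The median log2 fold change of the members was -0.08, against 0.03 for all genes. This count rested on single libraries: it was 0 in each of the 8 fits that left out control replicate 2, 3, 4 or 5 or IS replicate 1, 2, 3 or 5. It was 9 without control replicate 1, 11 without IS replicate 4 and 12 without both, where 6694, 6952 and 9140 of the 20139 genes were called, so that in these fits the members were called no more often than genes at large. It was 0 in a fit of the IS and control libraries alone, as was the count over all genes, and in the 8 fits above from 15 to 305 genes were called. Counting 3 near-identical pairs of libraries as 1 library each left 3 members (Lama4, Itga5 and Lamb3) and 669 genes. With IS, 3 of the 10 adipocyte markers and 3 of the 9 preadipocyte and fibroblast markers were called lower and 0 higher. Their sums ranged from 4007.6 to 5588.1 and from 488 to 799 FPKM, and their part in the result was not tested.

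Lama4 had 310, 311, 327, 403 and 353 CPM with IS, all under the lowest control value of 442 CPM, which edgeR fitted as -0.43 ± 0.12 in log2 (SE, adjusted p = 0.0614). The highest IS value was in replicate 4. Without that library and control replicate 1, which were picked for lying near the other group, the log2 fold change was -0.51 (adjusted p = 0.00104, edgeR). Lamc1 had 402, 394, 419, 475 and 445 CPM with IS against 562, 540, 565, 551 and 603 CPM in control cells (-0.40, SE 0.13, adjusted p = 0.0893, edgeR). Lamb1 had 512, 509, 518, 557 and 582 CPM, all under the control libraries, which edgeR fitted as -0.28 ± 0.10 in log2 (SE, adjusted p = 0.0959).

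Lamb3, the beta chain of epithelial laminin, went from 4.17 ± 0.601 CPM in control cells to 2.85 ± 0.371 CPM under IS, again without overlap (-0.55, SE 0.16, adjusted p = 0.0712, edgeR). Lamb2 was at 34.1 ± 1.97 and 35.6 ± 6.44 CPM (-0.06, 95% interval -0.33 to 0.20, adjusted p = 0.801, edgeR). So 4 of the 5 members whose groups did not overlap were laminin chains, and the fifth was Itga7. These 5 were 14.7% of the members, against 1.81% of all genes.

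Itga5 had 147, 153, 166, 269 and 191 CPM with IS, which edgeR fitted as -0.48 ± 0.15 in log2 (SE, adjusted p = 0.0782). Replicate 4 lay inside the control range and the other 4 libraries under it, and without IS replicate 4 and control replicate 1 the change was -0.70 (adjusted p = 1.7e-04, edgeR). Itga7 had 27.4 ± 1.27 CPM against 34 ± 4.67 CPM without overlap (-0.31, SE 0.11, adjusted p = 0.0940, edgeR). Itga6 was lower by a similar amount but not past the threshold (169 ± 14 against 208 ± 30.7 CPM, -0.30, adjusted p = 0.108, edgeR), and 7 of 13 alternatives called it, DESeq2 and the fit with the length and GC trend out among them (adjusted p = 0.0497 and 0.00860), while the fit with the near-identical pairs summed, which is not among the 13, did not (adjusted p = 0.138).

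Itgav (0.14, adjusted p = 0.595), Itgb1 (0.18, adjusted p = 0.250), Itgb3 (0.10, adjusted p = 0.788) and Itgb5 (-0.26, adjusted p = 0.225) were not past the threshold with IS in edgeR. Itgb1 had 343, 341, 353, 269 and 365 CPM, and replicate 4 stood apart below the others. Without that library and control replicate 1, Itgb1 was called higher (0.32, adjusted p = 0.00780) and Itgb5 lower (-0.44, adjusted p = 0.00748, edgeR). With the length and GC trend out, Lama4 (-0.47), Lamc1 (-0.34), Lamb1 (-0.24), Itga5 (-0.34) and Itga6 (-0.36) were the 5 members called, while Itga7 (-0.17) and Lamb3 (-0.42) were not, where 827 genes were called. Both comparisons use the same control libraries, so the fall of Lama4, Itga5 and Itga7 in each is not independent.

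IS and oxLDL could be set against each other directly. No member passed the threshold (0 of 34, against 0.0149% of all genes), and 4 members (Itga11, Itga6, Lama2 and Lamb3) had an unadjusted p below 0.05 in edgeR, as did 5.20% of all genes. Every IS library was below every oxLDL library for Itga6 (148 to 183 against 210 to 260 CPM, log2 fold change -0.48, adjusted p = 0.299, edgeR) and Lamb3 (2.44 to 3.38 against 3.43 to 5.08 CPM, -0.49, adjusted p = 0.769, edgeR). These 2 were 5.88% of the members, against 1.49% of all genes. Fitted values of the other abundant members lay between -0.28 (Itgav) and 0.12 (Itga5). DESeq2 called 1 member here, and so did the fit with the length and GC trend out, where 41 and 20 of the 20139 genes were called.

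pNaKtide on its own changed no member past the threshold (0 of 34, against 0.00497% of all genes). Itgav and Lamb2 had an unadjusted p below 0.05 in edgeR, as did 6.12% of all genes, and DESeq2 called 0 members and 57 genes. For 24 of the 34 members DESeq2 gave no adjusted p, so these could not be called by it. Itgav had 25.2, 25.4, 39.6, 38.7 and 38.3 CPM against 42.8 ± 8.03 CPM in control cells (-0.36, 95% interval -0.69 to -0.02, adjusted p = 0.783, edgeR). The laminin chains were split among the pNaKtide libraries, along pairs of libraries that were nearly alike. Replicates 1 and 2 differed over all genes by a chi-square per degree of freedom of 1.36 and replicates 4 and 5 by 1.4, against 14.5 to 18.6 for the other pairs of this group. Lamc1 had 391, 400, 413, 611 and 602 CPM, Lamb1 484, 486, 525, 682 and 709, and Lama4 361, 360, 368, 485 and 499, so that 3 libraries lay under every control library for each gene and the other 2 above the control mean. The intervals of the log2 fold change were -0.50 to 0.05 for Lamc1, -0.38 to 0.03 for Lamb1 and -0.39 to 0.09 for Lama4. Lamb2 followed the same split, with 20.9, 21.1, 25.4, 38.2 and 38.1 CPM (-0.31, 95% interval -0.58 to -0.04, adjusted p = 0.752, edgeR). Fitted values for Itga5 (-0.17), Itga6 (-0.16), Itga7 (-0.08), Itgb1 (-0.16), Itgb3 (-0.01) and Itgb5 (-0.25) were not past the threshold. The median over the members was -0.17, against -0.02 for all genes.

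The next comparison was of pNaKtide added to oxLDL. Between oxLDL + pNaKtide and oxLDL, 11 members (32.4%) were called, 3 higher and 8 lower, against 48.3% of all genes tested (22.1% higher and 26.1% lower), so again no larger a share than the background. Itga5, Itga7 and Lama4, which had fallen with oxLDL, were higher, and Itgav, Itgb1, Itga8 and Itgb8, which had risen with it, were lower. The other 4 called lower were Itga1, Itga2, Itga6 and Itgb3. The 2 comparisons use the same oxLDL libraries, so opposite signs in them are not independent. Leaving out 1 library at a time gave from 6 members (without oxLDL replicate 2) to 11, and from 8347 to 9805 of all genes. Scaled by library size alone, which moved the median of all genes from -0.09 to -0.30, 1 member was called higher and 12 lower, where 10376 of the 20139 genes were called, again a larger share. Of the adipocyte markers 5 were higher and 0 lower (summed FPKM 5932 to 7608.9 with oxLDL + pNaKtide), and of the preadipocyte and fibroblast markers 3 were higher and 1 lower (679 to 1041.3 FPKM), and their part was not tested.

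Itgav had 27.9, 39.8, 23.9, 21.9 and 27.7 CPM with oxLDL + pNaKtide, all under the lowest oxLDL library at 45.6 CPM, and the fitted change was -1.03 ± 0.16 in log2 (SE; adjusted p = 2.8e-05, edgeR). Itgb1 had 245, 272, 279, 185 and 231 CPM, under all oxLDL libraries at 334 to 387 CPM, which edgeR fitted as -0.57 ± 0.10 in log2 (SE, adjusted p = 6.6e-05). Both remained past the threshold with the length and GC trend out, at -0.45 for Itgav and -0.22 for Itgb1 (adjusted p = 0.00123 and 0.00205, edgeR). These 2 subunits form a receptor pair.

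Itga5 had 232, 240, 206, 293 and 282 CPM with oxLDL + pNaKtide, each above all oxLDL libraries, whose highest was 192 CPM. The fitted change was 0.55 ± 0.15 in log2 (SE; adjusted p = 0.00276, edgeR), and 0.33 with the trend out (adjusted p = 0.0101). Itga7 had 34.6 ± 5.47 against 27.2 ± 3.46 CPM (0.35, SE 0.11, adjusted p = 0.00850, edgeR), and 0.21 with the trend out, which was not past the threshold. The ratio of Itga5 to Itgav was 20.3 ± 5.96 with oxLDL + pNaKtide and 6.57 ± 1.08 with oxLDL, and that of Itga5 to Itga6 was 2.39 ± 0.65 and 1.34 ± 0.209.

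Lama4 had 484, 453, 352, 394 and 642 CPM with oxLDL + pNaKtide, so that replicate 3 lay among the oxLDL libraries (343 to 380 CPM) and replicate 5 far above. The fitted change was 0.35 ± 0.12 in log2 (SE; adjusted p = 0.0152, edgeR), with 4 of 5 libraries above the oxLDL mean, but 0.12 under scaling by library size (adjusted p = 0.407) and 0.54 with the length and GC trend out (adjusted p = 1.9e-05). Lamb1 (0.12, adjusted p = 0.356), Lamc1 (0.09, adjusted p = 0.628) and Lamb2 (0.01, adjusted p = 0.979) were not past the threshold in edgeR, with intervals of -0.08 to 0.32, -0.19 to 0.37 and -0.26 to 0.27. Lamc1 ranged from 345 to 713 CPM in the oxLDL + pNaKtide libraries, wider than in the oxLDL libraries (421 to 515 CPM).

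**Figure D4:**
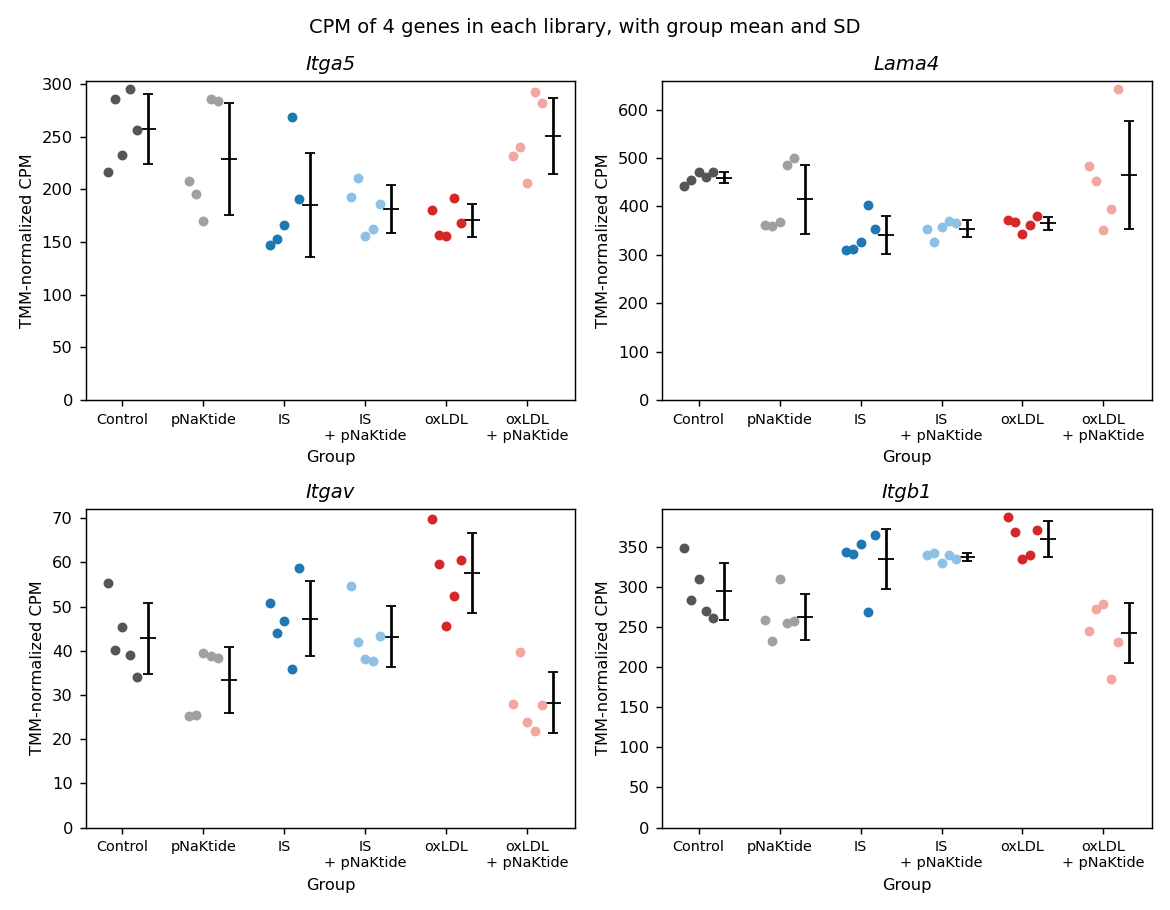
CPM after TMM scaling of Itga5, Lama4, Itgav and Itgb1 in each library (points, replicates 1 to 5 from left to right), with the group mean and SD (bars, n = 5). Itga5 and Lama4 are lowest with IS, IS + pNaKtide and oxLDL, and Itgav and Itgb1 are highest with oxLDL and lowest with oxLDL + pNaKtide.

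Itga8 had 0.691 ± 0.265 against 1.92 ± 0.487 CPM without overlap, which edgeR fitted as -1.47 ± 0.33 in log2 (SE, adjusted p = 6.7e-04), and it was past the threshold with the trend out too (adjusted p = 0.0197). The groups did not overlap for 4 members (11.8%: Itga5, Itga8, Itgav and Itgb1), against 28.4% of all genes. Itga6 (197 ± 31.9 against 235 ± 20.7 CPM, -0.25, adjusted p = 0.0712), Itgb3 (19.9 ± 3 against 26.3 ± 3.1 CPM, -0.41, adjusted p = 0.0891) and Itga1 (1.17 ± 0.406 against 1.74 ± 0.404 CPM, -0.56, adjusted p = 0.0951) lay close to the threshold in edgeR. Of the 10 fits with 1 library left out, 5 called Itga6, 3 Itgb3 and 5 Itga1, and Itga1 changed sign with the trend out (0.11). Itga2 had 1 count with oxLDL + pNaKtide and 10 with oxLDL, a ratio of 8.47 for oxLDL over oxLDL + pNaKtide per count sequenced (95% exact interval 1.21 to 368), and Itgb8 had 3 and 14 counts (ratio 3.95, interval 1.1 to 21.5). Itgb5 was not past the threshold (79.6 ± 12.7 against 79.4 ± 7.25 CPM, 0.00, 95% interval -0.28 to 0.28), but was called lower with the trend out (-0.27, adjusted p = 0.0332, edgeR).

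Whether pNaKtide acted differently with oxLDL than alone was tested as a difference of changes. For 6 members (17.6%), against 24.6% of all genes (12.8% higher and 11.8% lower), the change with pNaKtide differed. It was higher in the presence of oxLDL for Itga5 (0.72 ± 0.21 in log2, SE, adjusted p = 0.0288), Lama4 (0.50, SE 0.16, adjusted p = 0.0428) and Itga7 (0.43, SE 0.15, adjusted p = 0.0538), and lower for Itgav (-0.67, SE 0.23, adjusted p = 0.0488) and Itgb1 (-0.40, SE 0.14, adjusted p = 0.0539), all in edgeR. The sixth was Itgb8 (-3.39, adjusted p = 0.0488), with 2, 7, 14 and 3 counts in the control, pNaKtide, oxLDL and oxLDL + pNaKtide libraries. With the length and GC trend out, Itga5 (0.46, adjusted p = 0.0506), Lama4 (0.63, adjusted p = 0.00693) and Lamb1 (0.29, adjusted p = 0.0555) were called, and Itgav (-0.17) and Itgb1 (-0.11) were not, where 2306 of the 20139 genes were called. Without pNaKtide replicate 3, 2 members and 2109 genes were called, against 4951 genes as fitted. Scaled by library size alone, 1 member was called higher and 5 lower, and 5270 of all genes were called. Lamb1 (0.30), Lamb2 (0.31), Lamc1 (0.31), Itga6 (-0.09), Itgb3 (-0.40) and Itgb5 (0.25) were not past the threshold as fitted.

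Against control cells, oxLDL + pNaKtide left 1 member called (2.94%), against 5.20% of all genes. This was Itgav, at 28.2 ± 6.95 against 42.8 ± 8.03 CPM (-0.60, SE 0.16, adjusted p = 0.0394, edgeR), below the control mean in 5 of 5 libraries, and no member was called without control replicate 1 or without oxLDL + pNaKtide replicate 4. Itga5 (-0.04, 95% interval -0.34 to 0.26), Lama4 (0.02, -0.22 to 0.26), Itga7 (0.03, -0.19 to 0.25) and Lamb1 (-0.03, -0.24 to 0.17) were not past the threshold, and the intervals of Itga5 and Lama4 do not reach the changes of -0.59 and -0.33 fitted for oxLDL alone. Those changes have errors of their own and use the same control libraries, so this does not show a return to the control level. Itgb1 (-0.28, adjusted p = 0.133) and Itgb5 (-0.33, adjusted p = 0.182) were not past it either in edgeR, nor were Lamc1 (-0.16), Lamb2 (-0.09), Itga6 (-0.08) and Itgb3 (-0.10).

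pNaKtide added to IS gave no call among the members (0 of 34, against 0% of all genes in edgeR), where DESeq2 called 14 genes over the whole table, 0 of them members. DESeq2 gave no adjusted p for 17 of the 34 members here. Itga7 (32.9 ± 3.27 against 27.4 ± 1.27 CPM, log2 fold change 0.26, 95% interval 0.04 to 0.48, above the IS mean in 5 of 5 libraries, with overlap between the groups) and Itgae, the integrin subunit known from epithelial T cells (1.52 ± 0.372 against 1.02 ± 0.169 CPM, 0.57, 0.13 to 1.01), had an unadjusted p below 0.05, as did 2.80% of all genes, and an adjusted p of 1.00 (edgeR). Lama4 stood at 354 ± 17.1 against 341 ± 39.1 CPM (0.06, -0.18 to 0.30), Itga5 at 182 ± 22.5 against 185 ± 49.9 CPM (-0.03, -0.33 to 0.28), and Itgb1 at 337 ± 5.23 against 334 ± 37.5 CPM (0.01, -0.20 to 0.22). For no member did the change with pNaKtide in the presence of IS differ from that of pNaKtide alone (0 called, against 0% of all genes, edgeR), where Itga7 and Itgb2 (and 3.07% of all genes) had an unadjusted p below 0.05, and DESeq2 also called 0 members. Fitted values for pNaKtide added to IS were 0.05 for Lamb1, -0.05 for Lamb2, -0.03 for Lamc1, 0.09 for Itga6, -0.13 for Itgav, -0.11 for Itgb3 and -0.07 for Itgb5.

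Between IS + pNaKtide and control libraries, 0 members were called, against 0.358% of all genes, while 8 had an unadjusted p below 0.05 in edgeR, as did 4022 of the 20139 genes, and DESeq2 called 5 members and 1486 genes. The groups did not overlap for 5 members (14.7%: Itga5, Itgb4, Lama4, Lamb1 and Lamc1), against 3.79% of all genes. Lama4 had 353, 326, 357, 370 and 365 CPM (-0.38, adjusted p = 0.148), Lamc1 443, 372, 407, 414 and 448 CPM (-0.44, adjusted p = 0.147), and Itga5 193, 211, 156, 162 and 186 CPM (-0.50, adjusted p = 0.146, edgeR). Without control replicate 1, 7 members were called, where 5378 of the 20139 genes were. Itga6 (-0.22), Itgb5 (-0.33), Itgb1 (0.20), Lamb2 (-0.11), Itga7 (-0.05), Itgb3 (-0.02) and Itgav (0.01) were not past the threshold. Itgb4, the laminin receptor subunit of epithelia, rested on 10 counts with IS + pNaKtide and 19 in control cells. Both groups held libraries with 2 counts of Itgb4, so its lack of overlap rested on library depth.

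The genes around these receptors were taken from 4 gene lists. Their counts are to be read against all 20139 genes tested, of which 3637 were higher and 3622 lower with oxLDL (36.0% in all), 897 and 702 with IS (7.94%), and 4458 and 5264 with oxLDL + pNaKtide against oxLDL (48.3%), with medians of 0.04, 0.03 and -0.09. Of 18 other basement membrane genes tested, 1 was called higher and 5 lower with oxLDL, 0 higher and 6 lower with IS, and 4 higher and 3 lower with oxLDL + pNaKtide against oxLDL, where the shares over all genes are 36.0%, 7.94% and 48.3%. The IS counts of these lists come from the fit whose member count rested on single libraries. With oxLDL, Npnt, a ligand of Itga8, rose (7.14 ± 0.931 to 9.57 ± 0.906 CPM, 0.43, adjusted p = 0.0206), and Sparc, a collagen-binding matrix protein, fell (1938.3 ± 265 to 1468.7 ± 164 CPM, -0.40, adjusted p = 0.0186), as did the collagens Col18a1 (-0.39, adjusted p = 0.0370) and Col15a1 (-0.42, adjusted p = 0.0178), all in edgeR. With IS the type IV collagen chain Col4a1 fell (6192.5 ± 357 to 4468.2 ± 751 CPM, -0.47, adjusted p = 0.0621), as did Col18a1 (-0.56, adjusted p = 0.0511, edgeR). With pNaKtide added to oxLDL, Col4a2 (0.44, adjusted p = 0.0106) and Sparc (0.39, adjusted p = 0.0105) were higher and Col4a5 (-0.96, adjusted p = 8.6e-06) and the guidance protein Ntn1 (-0.65, adjusted p = 1.4e-04) lower in edgeR. The median log2 fold changes of the list were -0.18, -0.33 and -0.16 in these comparisons.

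Of 21 non-integrin laminin receptor genes tested, which include the dystroglycan complex and the enzymes that glycosylate it, 4 were higher and 4 lower with oxLDL (median -0.03), 1 and 2 with IS (median -0.03), and 3 and 9 with oxLDL + pNaKtide against oxLDL (median -0.12), beside 36.0%, 7.94% and 48.3% of all genes. Cd151, a tetraspanin that binds laminin-binding integrins, fell with oxLDL from 328 ± 53.4 to 230 ± 30 CPM (-0.51, adjusted p = 0.00783) and was higher with pNaKtide added (320 ± 39.1 CPM, 0.48, adjusted p = 0.00143, edgeR). The syndecan Sdc1, a heparan sulfate receptor, fell with oxLDL (236 ± 31.8 to 179 ± 16.5 CPM, -0.40, adjusted p = 0.00812) and with IS (182 ± 24.1 CPM, -0.37, adjusted p = 0.0538, edgeR). Cd44, a hyaluronan receptor, was lower with oxLDL + pNaKtide than with oxLDL (42.2 ± 2.69 against 64.1 ± 4.92 CPM, -0.60, adjusted p = 2.0e-05, edgeR).

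Of 24 other integrin ligands tested, 3 were higher and 2 lower with oxLDL (median -0.09), 0 and 2 with IS (median -0.22), and 1 and 9 with oxLDL + pNaKtide against oxLDL (median -0.30), beside the same 36.0%, 7.94% and 48.3%. The ligands of Itgav-containing receptors did not go one way: with oxLDL Postn rose (376 ± 67.5 to 514 ± 65.7 CPM, 0.45, adjusted p = 0.00961), Spp1 rose (53.1 ± 4.3 to 85.2 ± 15.3 CPM, 0.68, adjusted p = 0.0191) and Mfge8 fell (139 ± 27.2 to 88.2 ± 13 CPM, -0.65, adjusted p = 0.00783, edgeR). With pNaKtide added to oxLDL, Postn (-0.83, adjusted p = 1.0e-05), Edil3 (-1.20, adjusted p = 3.9e-05) and Vcam1, a ligand of Itga4 integrins (-0.81, adjusted p = 6.4e-05), were lower and Mfge8 (0.66, adjusted p = 8.2e-04) higher in edgeR.

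Of 42 adaptors and kinases of integrin adhesions tested, 4 were higher and 18 lower with oxLDL (median -0.18), 1 and 5 with IS (median -0.15), and 17 higher and 11 lower with oxLDL + pNaKtide against oxLDL (median 0.17), again beside 36.0%, 7.94% and 48.3% of all genes. The LIM-domain adaptors Lims1 and Lims2, which both bind integrin-linked kinase, went opposite ways with oxLDL, Lims1 from 38.5 ± 8.49 to 51.8 ± 5.73 CPM (0.43, adjusted p = 0.0160) and Lims2 from 12.4 ± 2.45 to 8.18 ± 0.387 CPM (-0.60, adjusted p = 0.00783, edgeR). With pNaKtide added they were again opposite, at -0.68 and 0.73 (adjusted p = 1.2e-04 and 1.0e-04, edgeR). Tgfb1i1, a paxillin relative, fell with oxLDL (-0.63, adjusted p = 0.00824) and was higher with pNaKtide added (0.79, adjusted p = 1.4e-04), as was Zyx, a marker of mature adhesions (84.7 ± 8.43 to 127 ± 18.5 CPM, 0.59, adjusted p = 1.6e-04, edgeR). The Src family kinase Yes1 rose with oxLDL (11.2 ± 4.79 to 23.1 ± 4.99 CPM, 1.05, adjusted p = 0.00783) and with IS (18.7 ± 5.51 CPM, 0.75, adjusted p = 0.0818), and was lower with pNaKtide added to oxLDL (7.92 ± 2.34 CPM, -1.53, adjusted p = 3.4e-05, edgeR). Ptk2b, a kinase related to focal adhesion kinase, fell with oxLDL (167 ± 13.9 to 132 ± 9.01 CPM, -0.34, adjusted p = 0.00824) and with IS (131 ± 9.03 CPM, -0.35, adjusted p = 0.0443, edgeR). For pNaKtide alone and for pNaKtide added to IS, 0 genes of the 4 lists were called in edgeR.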

How the data were processed

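RNA-seq was analysed from 30 libraries of 3T3-L1 cells in 6 groups of 5, grouped by the labels. The authors trimmed paired reads of 50 bases with Trimmomatic 0.38 and aligned them to GRCm38 with HISAT2 2.1.0, per the submitters' processing notes, which also name DESeq2 1.20.0. Raw counts per gene and FPKM values were deposited by the authors. Neither the gene annotation's release nor whether counting used strand is given in the sources used here. The deposited normalized counts were not used, and the animals of the study were not analysed here.

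Raw counts were tested with edgeR 4.0.16 (R 4.3.3): TMM scaling, genes with more than 14 counts over 30 libraries, 1 robust quasi-likelihood fit of 6 group means, and Benjamini-Hochberg adjustment over the 20139 genes tested with a threshold of 0.1. Values of a gene across groups are CPM after TMM scaling, and levels between genes are FPKM. The common biological coefficient of variation was 14%. Intervals of log2 fold changes are 95% t intervals from its standard errors, and intervals of count ratios are exact and cover counting error only. No 2 libraries of a group agreed within sampling noise (chi-square per degree of freedom from 1.30 over 60 pairs), so each was counted. But IS + pNaKtide replicates 3 and 4 (1.30), pNaKtide replicates 1 and 2 (1.36) and pNaKtide replicates 4 and 5 (1.4) stood apart from the other pairs of their groups (3.72 to 11.2 and 14.5 to 18.6). An alternative chosen after seeing the data summed each pair under 1.5 into 1 library, leaving 27. Control replicates 2 and 4 (1.82) also stood apart from the other control pairs (5.46 to 39.8) but were not summed. Nor were the lowest pairs of the IS (2.01) and oxLDL (2.3) groups.

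The members and gene lists were chosen with earlier results of these data known. Every member called was named, and of those not called the members with a mean of at least 1 FPKM. Of each other list, at most 3 genes per direction and comparison with the smallest adjusted p and a mean log2 CPM of at least 1 could be named. Alternatives were DESeq2 1.42.0, other scalings and filters, a threshold of 0.05, limma 3.58.1 on log2(FPKM + 1) and log2(FPKM + 0.1) for genes with a mean of at least 0.5 FPKM, only the groups compared, a replicate block, leaving out each library, leaving out control replicate 1 with IS replicate 4, and removal of each library's trend over gene length and GC content (mgcv 1.9.3).

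Values of 1 member are not reported here.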

Additional observations from a re-analysis of the deposited data

Results flagged for a closer look

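In 7 of 108 sets of 5 libraries (18 members in 6 groups), 1 library stood apart from the other 4 (gap over range above 0.71), and chance alone gives about 1 in 20. Control replicate 1 was high for Itgb3 (33.8 CPM, next 20.2) and Lamb1 (685 CPM, next 649). IS replicate 4 was low for Itgb1 (269 CPM, next 341). Lamb1 was low in oxLDL replicate 3 (503 CPM, next 602) and high in oxLDL + pNaKtide replicate 5 (751 CPM, next 625). Itga2 had 1 count, in replicate 4 of the pNaKtide group (0.098 CPM) and in replicate 4 of the oxLDL + pNaKtide group (0.166 CPM), and 0 in the other libraries of both groups.

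The change with pNaKtide differed between cells with oxLDL and cells without it for 6 members, by the test of that difference in edgeR. On the log2 scale the difference was 0.72 for Itga5 (adjusted p = 0.0288), 0.50 for Lama4 (0.0428), 0.43 for Itga7 (0.0538), -0.67 for Itgav (0.0488), -0.40 for Itgb1 (0.0539) and -3.39 for Itgb8 (0.0488), the last on 2 to 14 counts a group.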

How the results depend on the processing

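With the length and GC trend taken out, the members called numbered 3 with oxLDL (10 as reported), 3 for oxLDL + pNaKtide against control (1), 4 for IS + pNaKtide against control (0), 1 for IS against oxLDL (0) and 3 for the difference in the change with pNaKtide (6). In that fit, for oxLDL + pNaKtide against oxLDL, Itga1 went from -0.56 to 0.11 and Itgb5 from 0.00 to -0.27. For IS against control, where 6 were called, library size scaling gave 3, genes with at least 1 count 1, a threshold of 0.05 gave 0, only the groups compared 0, and leaving out control replicate 1 with IS replicate 4 gave 12. For oxLDL + pNaKtide against oxLDL, where 11 were called, DESeq2, genes over 14 counts in every library, genes with at least 1 count and limma with either pseudocount gave 7 each, and a threshold of 0.05 gave 6. Only 15 members were tested with over 14 counts in every library and 16 with limma. DESeq2 gave no adjusted p for 10 of the 34 members with oxLDL, 14 with IS and 4 for oxLDL + pNaKtide against oxLDL. It gave none for 17 members for oxLDL + pNaKtide against control, 19 for IS + pNaKtide against control and 19 for IS against oxLDL. For oxLDL + pNaKtide against control, DESeq2, genes over 14 counts in every library, limma with either pseudocount, and leaving out those 2 libraries gave 2 each, library size scaling 3 and only the groups compared 0. For IS + pNaKtide against control, DESeq2 gave 5, genes over 14 counts in every library 2, only the groups compared 3, and leaving out those 2 libraries 7. For IS against oxLDL, DESeq2 gave 1. Summing the 3 near-identical pairs gave 3 members with IS, and 0 to 11 in the other comparisons, each equal to the count as reported. The cause of these differences was not tested.

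The counts over all genes moved too. For IS against control, where 1599 of 20139 genes were called, library size scaling gave 2541, genes with at least 1 count 546 of 29409, a threshold of 0.05 gave 130, only the groups compared 0, leaving out those 2 libraries 9140 and summing the pairs 669. With the trend taken out they were 4004 with oxLDL (7259 as reported), 1905 for oxLDL + pNaKtide against control (1047), 416 for IS + pNaKtide against control (72), 20 for IS against oxLDL (3) and 2306 for the difference in the change with pNaKtide (4951). For oxLDL + pNaKtide against oxLDL, where 9722 were called, DESeq2 gave 9643, genes over 14 counts in every library 8304 of 11567, genes with at least 1 count 8909 of 29409, limma 9351 and 9331 of 13639, and a threshold of 0.05 gave 8377. For oxLDL + pNaKtide against control, DESeq2 gave 1821, genes over 14 counts in every library 1660, limma 1631 and 1662, leaving out those 2 libraries 1287, library size scaling 1968 and only the groups compared 11. For IS + pNaKtide against control, DESeq2 gave 1486, genes over 14 counts in every library 312, only the groups compared 1152 and leaving out those 2 libraries 6517. For IS against oxLDL, DESeq2 gave 41.

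Leaving out 1 library at a time gave from 6 to 11 members with oxLDL, 0 to 11 with IS, 6 to 11 for oxLDL + pNaKtide against oxLDL, 0 to 2 against control, 0 to 7 for IS + pNaKtide against control and 2 to 8 for the difference in the change with pNaKtide in oxLDL. Over all 20139 genes the same fits called from 4971 to 9248, 15 to 6952, 8347 to 9805, 505 to 1300, 2 to 5378 and 2109 to 7504. The member count was 0 throughout for pNaKtide alone, IS + pNaKtide against IS, IS against oxLDL and the difference in IS. The count was 6 with oxLDL without control replicate 5, and 6 for oxLDL + pNaKtide against oxLDL without oxLDL replicate 2, 7 without oxLDL replicate 1 and 7 without oxLDL + pNaKtide replicate 3.

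Replicate numbers were not taken to pair the libraries, since no label ties them and not every pair correlated above 0.1: deviations of same-numbered libraries correlated from -0.66 to 0.79 (median 0.1, 36 of 75 pairs over 0.1), and 13 of 30 libraries correlated best with their own number. Replicate 4 of the control, IS, oxLDL and oxLDL + pNaKtide groups correlated at 0.58 to 0.79 in all 6 pairs, a hint of pairing from the data and not from the design. With a replicate block, 11 members were called with oxLDL, 8 with IS, 12 for oxLDL + pNaKtide against oxLDL, 2 for oxLDL + pNaKtide against control, 5 for IS + pNaKtide against control and 7 for the difference in the change with pNaKtide, where 7807, 3423, 9995, 1653, 1338 and 5996 of the 20139 genes were called.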
